A study of Rattus norvegicus with 6 samples.

Results

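Integrins are cell surface receptors made of an alpha and a beta chain, and the 8 integrin genes described here encode chains found on leukocytes or vessel cells. They are Itgam, Itgal, Itgb2, Itga4, Itga6, Itgav, Itgb1 and Itgb5, taken by gene symbol from the 30452 genes of the deposited table, and each symbol named 1 gene. The samples were hippocampi of male rats, 3 irradiated (20 Gy to the whole brain, 2 months before dissection) and 3 control, with strain and age not given. The tissue was minced, digested at 37 °C, strained, treated to lyse red cells and passed over beads that take out dead cells, with no sort named. Transcripts were then counted by droplet single-cell RNA sequencing (10x 3′ v3), which tags every transcript with the barcode of its cell and with a molecular identifier (UMI) that lets copies be counted once.

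The matrix pools 6 libraries, told apart by the number that ends each barcode, and the labels match 0 of these numbers to a rat. Irradiated and control rats were therefore not compared, libraries are given by number with no group, and cells are not replicates, so no p-value was computed. The libraries held 7479 to 11931 barcodes and 46853113 to 62094407 UMIs, and 5462 to 9678 cells per library were kept, 45393 in all, with a median of 4983 UMIs. In the matrix 410 barcode sequences occurred in more than 1 library, and 637 kept cells carried such a sequence. No cluster met the marker rule for mature neurons, although the tissue was hippocampus. Cycling cluster 27, with 90 cells, passed 10 of 12 neuroblast markers but was named by its cycling markers. Cluster 33, with 42 cells, scored highest for mature neurons but passed only 4 of 9 of their markers. Cells were grouped by markers into 21 classes or numbered clusters, and the 12 with at least 100 cells were compared. Microglia-like cells were 80.8%, 77.6%, 74.0%, 20.3%, 17.2% and 8.51% of kept cells in libraries 1 to 6. Levels are CPM, the UMIs of a gene divided by all UMIs of the class and scaled to the usual fixed total. A myeloid population led by Clec7a and Lyz2 numbered 3, 0, 0, 1698, 2919 and 2444 cells in libraries 1 to 6. It met the rule for no named class and is called Clec7a-high myeloid, with 699 CPM of Clec7a against 6.12 CPM in microglia-like cells, and 70.0 CPM of the microglial gene P2ry12 against 831 CPM. Bracketed ranges are exact Poisson 95% intervals for CPM and exact binomial ones for shares. They cover counting error only. RNA released from other cells was not removed, and doublets were removed in part.

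The alpha chain sets what an integrin binds and the beta chain connects it to the cytoskeleton through talin and kindlin, which switch the receptor to its binding state. The beta 2 chain, encoded by Itgb2, is made by leukocytes and pairs with the alpha M chain of Itgam (CD11b, complement receptor 3, a common marker of microglia) or the alpha L chain of Itgal (CD11a, LFA-1, which binds ICAMs). The beta 1 chain of Itgb1 pairs with the alpha 4 chain of Itga4 (VLA-4, a receptor for VCAM-1 and fibronectin that leukocytes use to enter the brain) and with the alpha 6 chain of Itga6, a laminin receptor of vessel walls. The alpha V chain of Itgav pairs with several beta chains, the beta 5 chain of Itgb5 among them, and binds vitronectin and latent TGF-beta.

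Promoter sequences are shown because the genes divide by cell class, and these are the windows that govern where transcription starts. RefSeq's table for the assembly GRCr8 held 5 of the 8 genes, and 4 are printed: Itgam and Itga4, high in leukocyte classes, Itgav, high in precursor-like and astrocyte-like cells, and Itgb1, found in all. Each is the 250 bases before the start of the gene, 5′ to 3′ on the strand of the gene. Capitals mark 3 motifs read on either strand, GAGGAA (the core bound by the myeloid factor PU.1), TGTGGT (the core bound by RUNX factors) and GGGCGG (bound by Sp1), which overlap nowhere in these windows.
Itgam (GRCr8 chr1:192089342-192089591, plus strand): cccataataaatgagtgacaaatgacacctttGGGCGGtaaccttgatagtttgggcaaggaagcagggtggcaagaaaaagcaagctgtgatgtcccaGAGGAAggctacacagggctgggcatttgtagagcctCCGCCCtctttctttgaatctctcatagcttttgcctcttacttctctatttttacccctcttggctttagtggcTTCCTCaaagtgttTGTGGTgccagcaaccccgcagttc
Itga4 (GRCr8 chr3:84569765-84570014, plus strand): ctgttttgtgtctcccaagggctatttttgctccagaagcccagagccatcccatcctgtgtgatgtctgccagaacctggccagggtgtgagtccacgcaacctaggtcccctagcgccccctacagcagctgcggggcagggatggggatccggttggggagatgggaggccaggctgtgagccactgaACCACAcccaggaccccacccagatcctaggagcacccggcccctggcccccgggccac
Itgav (GRCr8 chr3:89245132-89245381, plus strand): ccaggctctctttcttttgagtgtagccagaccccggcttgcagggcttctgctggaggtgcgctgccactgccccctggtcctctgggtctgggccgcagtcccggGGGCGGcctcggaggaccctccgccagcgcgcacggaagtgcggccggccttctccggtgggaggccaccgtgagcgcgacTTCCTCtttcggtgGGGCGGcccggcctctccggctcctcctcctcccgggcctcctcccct
Itgb1 (GRCr8 chr19:73602027-73602276, plus strand): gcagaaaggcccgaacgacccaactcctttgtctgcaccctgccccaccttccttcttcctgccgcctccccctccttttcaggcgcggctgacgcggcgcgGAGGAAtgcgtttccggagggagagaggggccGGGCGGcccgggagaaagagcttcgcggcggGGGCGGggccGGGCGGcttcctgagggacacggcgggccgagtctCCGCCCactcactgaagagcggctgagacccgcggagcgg
The Itgam window held GAGGAA 2 times, TGTGGT 1 time and GGGCGG 2 times. The Itga4 window held TGTGGT 1 time and neither of the others. In the Itgav window GAGGAA occurred 1 time and GGGCGG 2 times, and in the Itgb1 window they occurred 1 time and 4 times. Of 33469 promoters in the table, 23.3% held GAGGAA, 14.5% held TGTGGT and 30.5% held GGGCGG in the same window, so each motif is common, and a match is not a bound site. The Itgb5 window, not printed, held 0 of the 3 motifs.

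Itgam (ENSRNOG00000019728) was highest in microglia-like cells, at 243 CPM (240.1 to 246; 28669 UMIs in 21770 cells). Its level in these cells was 254, 217, 158, 366, 404 and 419 CPM in libraries 1 to 6. In astrocyte-like cells it was 8.09, 11.9, 8.46, 15.6, 6.75 and 3.52 CPM in the same libraries. Microglia-like cells were thus higher in all 6 libraries, 18.2 to 119 times, with no overlap of the library values. For each gene and class the log2 ratio of the class to the median of the 12 classes was taken, with 10 CPM added to both, and a ratio past 1 in either direction is a call. Itgam stood 2.24 above the median of 43.7 CPM in microglia-like cells, and 1.81 above it in cycling cluster 20, a dividing myeloid cluster at 178 CPM. The microglial call did not hold (0.72) when each cell was named by its own highest marker score rather than by its cluster. Itgam was called lower in astrocyte-like cells (-1.43), mature oligodendrocyte-like cells (-1.44) and endothelial-like cells (-1.12; -0.77 without library 2). With doublets kept the ratio was -0.90 in astrocyte-like and -0.57 in mature oligodendrocyte-like cells. Every pair of neighbours in the order of classes overlapped in library values. After each cell was thinned to 2000 UMIs, 35.04% of microglia-like cells (34.4 to 35.7) and 2.02% of astrocyte-like cells (1.75 to 2.32), which should lack the gene, had an Itgam UMI. The unthinned shares were 60.2% and 5.87%, at median depths of 4878 and 6024 UMIs.

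The low Itgam level of the glia of neural origin ran with that of other microglial genes. In astrocyte-like cells 14 microglia markers summed to 1352 CPM, 4.49% of their sum in microglia-like cells, and Itgam stood at 4.09% and Itgb2 at 3.28% of their microglial levels. Of the 14 markers 1, Siglech, was at 0 in astrocyte-like cells. Astrocyte cluster 11, with 949 of its 956 cells from library 4, had Itgam at 61.8 CPM there and microglia markers at 27.9% of the microglial sum. Mature oligodendrocyte-like cells had the markers at 3.82% and Itgam at 4.05%, and endothelial-like cells 6.46% and 6.03%. The part of such RNA in these levels was not tested. Clusters 12 and 25 also carried markers of several classes, with Itgam at 162 CPM (1.68) and 219.7 CPM (2.10).

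Among the integrin genes of at least 10 CPM in microglia-like cells, Itgam varied most between libraries. Its level in microglia-like cells of library 6 was 2.66 times that of library 3, and it was the 1 gene of these 6 whose highest library was at least 2 times the lowest. Of all 7693 genes of that level 25.8% passed this mark, so 1 of 6 is not more than the background. Without library 3 no integrin gene passed it. The 3 highest values were those of libraries 4, 5 and 6. Most of their microglia-like cells fell in cluster 5, where Itgam stood at 373, 404 and 423 CPM in these libraries, and at 288 and 231 CPM in libraries 1 and 2. In clusters 0 and 2, which held most microglia-like cells of libraries 1 and 2, it was 255, 219, 195, 278 and 407 CPM in libraries 1 to 5, with 41 cells behind the value of library 3. Over all kept cells the 3 highest values were instead those of libraries 1, 2 and 3, with 218, 159, 127, 100.4, 89.0 and 74.4 CPM in libraries 1 to 6, beside the shares of microglia-like cells given above. The plot of the 8 genes in microglia-like cells by library shows the spread.

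**Figure D1:**
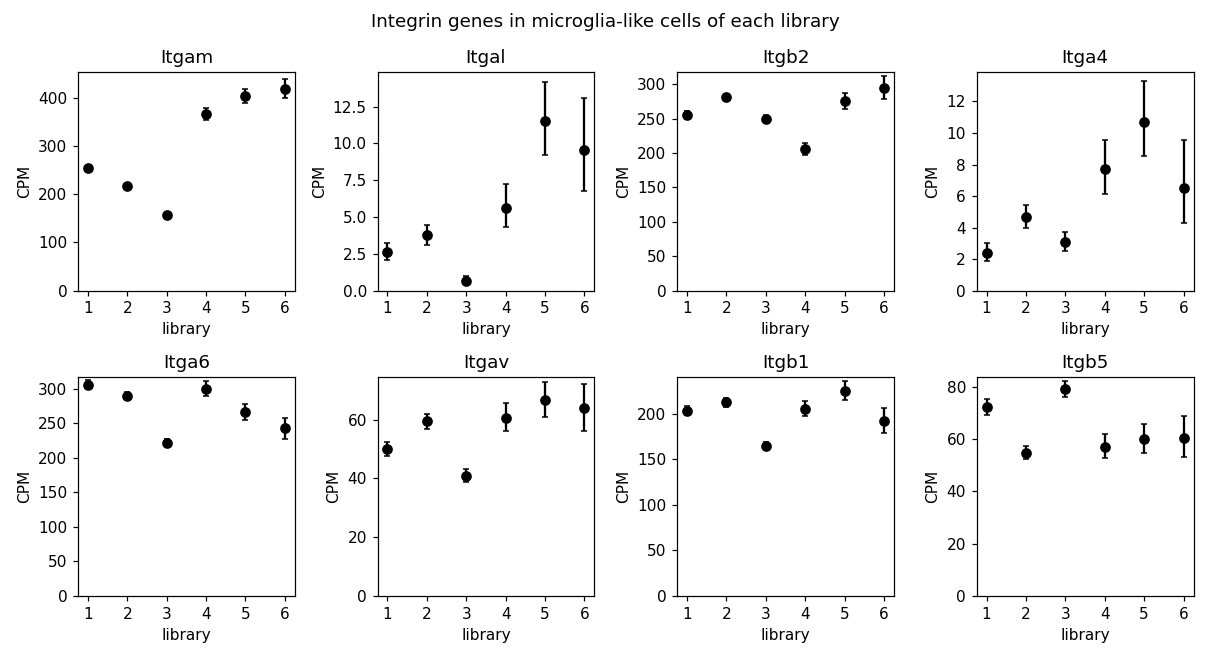
Level in CPM of each integrin gene in microglia-like cells (y axis, from 0) by library (x axis, 1 to 6); points are libraries and bars exact Poisson 95% intervals, which cover counting error only. Itgam runs from 158 CPM in library 3 to 419 CPM in library 6, while Itgb2 stays between 206 and 295 CPM.

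Itgb2 (ENSRNOG00000001224), whose chain Itgam and Itgal products need to reach the cell surface, was shared by microglia-like, T or NK cell-like and neutrophil-like cells. Microglia-like cells had 259 CPM (257 to 262), the T or NK class 258 CPM (242 to 275) and the 202 neutrophil-like cells, with a median of only 1219.5 UMIs, 250.3 CPM (197 to 314). In microglia-like cells it was 256, 281, 250.1, 206, 276 and 295 CPM in libraries 1 to 6. In T or NK cell-like cells the same libraries had 301, 179, 432, 164, 162 and 191 CPM, so these top classes overlapped and neither led throughout. The 56 B cell-like cells had less, at 100.7 CPM (59.7 to 159), and the clusters within the T or NK class differed, as given below. Of the other myeloid populations Clec7a-high cells had 114 CPM (111 to 117), and cluster 15, led by MHC class II genes, had 109 CPM. A gap without overlap then parted cluster 15 from oligodendrocyte precursor-like cells at 29.9 CPM. Itgb2 was called lower in precursor-like cells (-1.83), mature oligodendrocyte-like cells (-2.71), astrocyte-like cells (-2.94) and endothelial-like cells (-2.53). It was called higher in none of the 12 compared classes. Named by the highest marker score of each cell, endothelial-like cells were above the median for Itgb2 (0.51) and Itgam (0.71). Cluster 34, with 35 cells that bore monocyte and neutrophil genes, had the highest level of all, 631 CPM (507 to 776).

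Itgal (ENSRNOG00000017980) was sparse everywhere, with its highest level among compared classes in T or NK cell-like cells at 21.4 CPM (16.9 to 26.7; 78 UMIs). In these cells it was 39.1, 13.8, 16.6, 22.9, 24.3 and 23.3 CPM in libraries 1 to 6, and in microglia-like cells 2.63, 3.75, 0.657, 5.64, 11.5 and 9.55 CPM. T or NK cell-like cells were higher in all 6 libraries, by 2.11 to 25.2 times. The call in these cells was marginal, at 1.01 above the median of 5.65 CPM, and was under the mark without library 1 (0.67), 2 (0.80), 3 (0.84) or 4 (0.84), with at most 10% mitochondrial UMIs (0.82) and with doublets kept (0.86). Clec7a-high myeloid cells had 11.6 CPM (10.6 to 12.7) against 3.49 CPM in microglia-like cells (3.16 to 3.84) of all libraries. Within libraries 4, 5 and 6, which hold nearly all Clec7a-high cells, the ratio was 1.12 to 1.54 and the intervals overlapped. Astrocyte-like cells had 0.241 CPM, and endothelial-like and precursor-like cells had 0 UMIs, which allows up to 3.14 and 4.08 CPM. The range of library values overlapped for every pair of neighbours in the order of classes.

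Within the T or NK cell-like class the clusters differed in several of the genes. Cluster 18 passed all 8 NK cell markers, and clusters 17 and 22 all 11 T cell markers. The T cell markers also summed to 40.4% of their T or NK class level in cluster 18, against 140% and 109% in clusters 17 and 22. Cd8a was among the leading genes of cluster 18. Itgam was at 145, 79.1, 75.9, 59.4 and 41.6 CPM in cluster 18 of libraries 1, 3, 4, 5 and 6, against 5.58, 19.4, 11.97 and 4.82 CPM in cluster 17 of libraries 3 to 6 and 54.6 CPM in the 24 cells of library 2. Microglia markers summed to 7.84% of their microglial level in cluster 18 and to 7.13% in cluster 17, while Itgam stood at 32.9% of its own in cluster 18 and at 6.07% in cluster 17. Itgb2 was also higher in cluster 18, at 486 CPM (447 to 527) against 179 CPM (158 to 201) in cluster 17. Itgal stood at 34.5 CPM in cluster 18 (24.7 to 46.8) and 19.2 CPM in cluster 17 (12.96 to 27.4), which overlap. Against cluster 17 Itga4 and Itgb1 ran the other way, with 46.2 CPM of Itga4 in cluster 18, against 167 CPM in cluster 17, and 125 CPM of Itgb1, against 321 CPM. The other T cell cluster, 22, with 191 cells, had 94.4 CPM of Itga4 (75.3 to 117) but only 87.6 CPM of Itgb1 (69.3 to 109), so Itgb1 divided the T cell clusters. Cluster 22 had 92.1 CPM of Itgb2 and 16.9 CPM of Itgam (9.43 to 27.8). Cycling cluster 29, 84 dividing cells with NK cell markers, had 375 CPM of Itgb2 and 55.5 CPM of Itga4. Its T cell markers summed to 59.5% of their T or NK class level, and Cd8a was among its leading genes.

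Itga4 (ENSRNOG00000004861) was high in lymphocytes, and it was higher in the Clec7a-high population than in microglia-like cells. It stood at 109.9 CPM in T or NK cell-like cells (99.4 to 121), with 62.6, 64.3, 88.4, 136, 161 and 102 CPM in libraries 1 to 6. Clec7a-high myeloid cells, next in order, had 29.1, 39.3 and 24.0 CPM in libraries 4, 5 and 6, below every library of the T or NK class. In microglia-like cells Itga4 had 2.40, 4.65, 3.07, 7.70, 10.7 and 6.53 CPM in libraries 1 to 6, and astrocyte-like cells 0.092 to 0.65 CPM. The 56 B cell-like cells had 89.5 CPM (51.1 to 145), and border macrophage-like cells 35.1 CPM (20.1 to 57.0). The 35 cells of cluster 34, with monocyte and neutrophil genes, had the highest pooled level, 120.5 CPM (70.2 to 193; 17 UMIs), an interval that holds the level of the T or NK class. Only library 3 held at least 20 of these cells, 22 in number. There cluster 34 had 41.2 CPM of Itga4, below every library of the T or NK class. The log2 ratio to the median of 7.78 CPM was 2.75 in T or NK cell-like cells. In Clec7a-high myeloid cells it was 1.18, and under the mark without library 1 (0.77), 2 (0.98) or 3 (0.82), which hold 3 of its cells in all, and also with at most 10% mitochondrial UMIs (0.52), with doublets kept (0.94) and with clusters 12 and 25 left out of the median (0.74). In neutrophil-like cells it was 1.17, on 9 UMIs, and under the mark without library 1 (0.88) or 2 (0.73). T cell markers summed to 4.30% of their T or NK cell level in Clec7a-high myeloid cells and to 1.88% in microglia-like cells. After thinning to 2000 UMIs, 5.98% of Clec7a-high myeloid cells (5.42 to 6.58), 0.819% of microglia-like cells and 0.0729% of astrocyte-like cells had an Itga4 UMI.

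Libraries 4, 5 and 6 held enough of both myeloid populations to compare them within a library. Itgam was at 32.2, 55.7 and 55.5 CPM in Clec7a-high myeloid cells, against 366, 404 and 419 CPM in microglia-like cells, a ratio of 0.0878 to 0.138. Itgb2 had 78.5, 122 and 124 CPM in Clec7a-high myeloid cells and 206, 276 and 295 CPM in microglia-like cells (0.381 to 0.443), and Itga6 had 124, 117 and 101 CPM and 300.2, 267 and 243 CPM (0.414 to 0.44). The Itga4 ratio was 3.67 to 3.78 in the same libraries. Itgb2 depended on the mitochondrial limit, with a median log2 ratio over the libraries of -0.68 at 10% against -1.19 as reported. At least a 2-fold difference in each of the 3 libraries was thus met by 3 of 8 genes as lower in Clec7a-high myeloid cells, beside 5.66% of 8333 genes of at least 10 CPM in either class, and by 1 of 8 as higher, beside 3.52%. Itgav and Itgb1 were also lower in all 3 libraries, with ratios of 0.318 to 0.553 and 0.584 to 0.767, but not by 2-fold in each. Itgal and Itgb5 were higher in all 3, by 1.12 to 1.54 and 1.03 to 1.77 times, but the intervals of the classes overlapped for Itgal in all 3 libraries and for Itgb5 in libraries 5 and 6. The median log2 ratio was -0.64 over the 8 genes and -0.037 over all genes of that level.

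**Figure D2:**
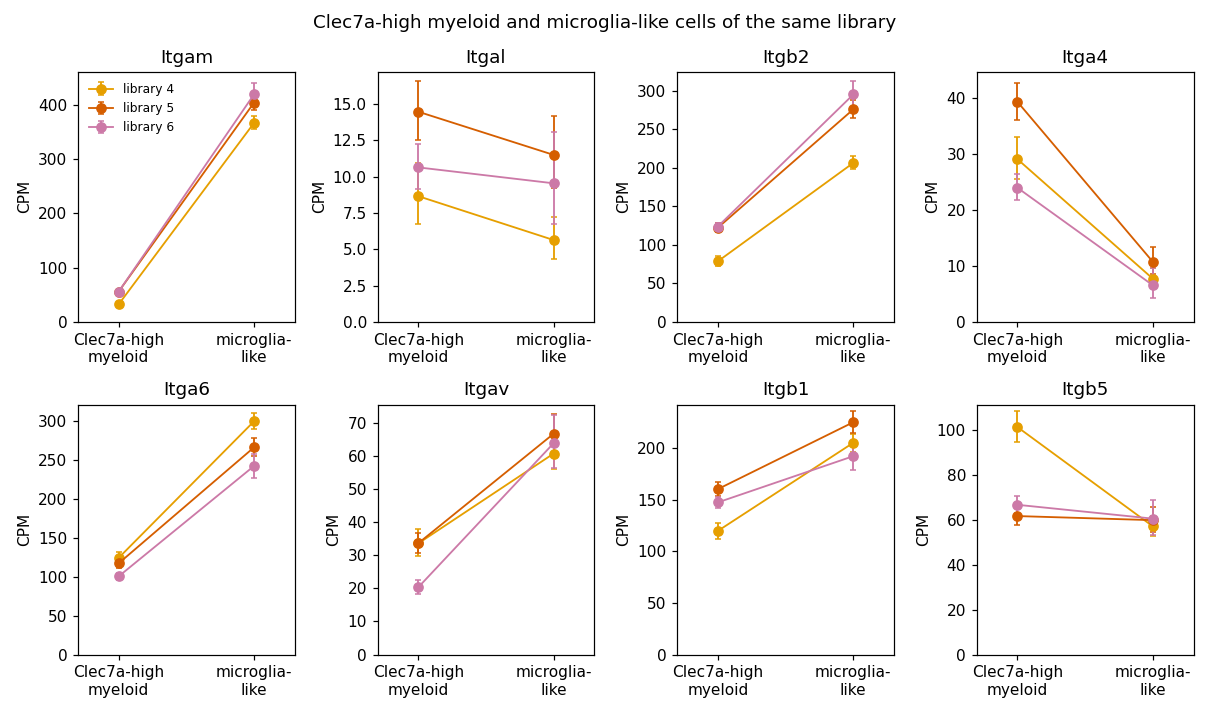
Level in CPM (y axis, from 0) of each integrin gene in Clec7a-high myeloid cells (left) and microglia-like cells (right) of libraries 4, 5 and 6; lines join classes of 1 library and bars are exact Poisson 95% intervals. Itgam, Itgb2 and Itga6 are lower on the left in every library, and Itga4 is higher on the left.

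The 3 clusters of the Clec7a-high population, numbered 3, 9 and 16, had Itga4 at like pooled levels and Itgam at unlike ones. Itgam stood at 56.1 CPM in cluster 3 (53.0 to 59.4), 47.8 CPM in cluster 9, which carried the chemokine genes Cxcl1 and Cxcl2, and 32.3 CPM in cluster 16 (26.7 to 38.7), which carried interferon-induced genes. Itga4 was at 29.5, 31.3 and 31.7 CPM in the same clusters. By library Itgam ran from 37.2 to 68.0 CPM in cluster 3 and from 26.4 to 61.5 CPM in cluster 9, so clusters 3 and 9 overlapped. In library 5 cluster 9 was the higher, at 61.5 CPM against 55.9 CPM. Itgb2 was also lowest in cluster 16, at 90.5 CPM (80.95 to 100.8), against 119.6 CPM in cluster 3 (115 to 124). Cluster 15 resembled them in Itga4, at 25.2 CPM, and had less Itgam, at 16.4, 15.9 and 13.8 CPM in libraries 4, 5 and 6. Among the 94 border macrophage-like cells, which line vessels and meninges, Itgb5 reached 186 CPM (149 to 231) and Itgam 46.1 CPM (28.5 to 70.4).

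Itga6 (ENSRNOG00000001518) was high in endothelial-like and microglia-like cells and low in T or NK and oligodendrocyte lineage cells. Endothelial-like cells, 130 in all with all 10 endothelial markers passing and haemoglobin genes also among their leading genes, had 358 CPM (321 to 398), with 384 and 295 CPM in libraries 3 and 5, those with at least 20 cells. Microglia-like cells had 273 CPM (270.5 to 276), with 306, 290.2, 222, 300.2, 267 and 243 CPM in libraries 1 to 6. Astrocyte-like cells had 196, 171, 112, 176, 167 and 167 CPM, below microglia-like cells in all 6 libraries. Endothelial-like cells exceeded microglia-like cells of the same library by 1.73 times in library 3 and 1.11 times in library 5, and the ranges of these classes overlapped. Itga6 was called higher in endothelial-like cells (1.45), cluster 25 (1.36), cycling cluster 20 (1.13) and microglia-like cells (1.07; 0.90 without library 4). Named by the highest marker score of each cell, endothelial-like and microglia-like cells were under the mark (0.63 and 0.65). The lowest classes were T or NK cell-like cells at 33.0 CPM (-1.65), precursor-like cells at 34.0 CPM (-1.62) and mature oligodendrocyte-like cells at 20.5 CPM (-2.14). Mural or fibroblast-like cells, the other vessel class, were called lower, at 53.4 CPM (31.1 to 85.6; -1.09), and B cell-like cells had 95.1 CPM with no call (-0.36). With doublets kept the T or NK and oligodendrocyte ratios were -0.57 and -0.88. After thinning, 52.6% of endothelial-like cells (42.2 to 62.8), 40.6% of microglia-like cells and 3.28% of mature oligodendrocyte-like cells had an Itga6 UMI.

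Itgb1 (ENSRNOG00000010966), the common partner of alpha 4 and alpha 6, had no call in the following 5 populations. Microglia-like cells had 197 CPM, astrocyte-like cells 183 CPM, Clec7a-high myeloid cells 147 CPM, mature oligodendrocyte-like cells 160.0 CPM and the T or NK class 199.96 CPM. By library it was 203, 212, 164, 205, 225 and 192 CPM in microglia-like cells and 152, 184, 109, 175, 211 and 196 CPM in astrocyte-like cells. Vessel cells stood above these levels, with 488 CPM in endothelial-like cells (444 to 534; 296 CPM in library 3 and 512 CPM in library 5) and 525 CPM in the 83 mural or fibroblast-like cells (448 to 611). The ratio was called in endothelial-like cells (1.37) and in mural or fibroblast-like cells (1.48), and the endothelial ratio was 0.34 when each cell was named by its highest marker score. High Itgb1 was not confined to vessel cells. The 35 cells of cluster 34, with monocyte and neutrophil genes, had 425 CPM (325 to 547) and were also called higher (1.18). Cluster 28, with oligodendrocyte markers, had 320 CPM (279 to 364) and no call (0.78). Endothelial-like cells and the next compared class, precursor-like cells at 241 CPM (210 and 258 CPM in libraries 1 and 4), did not overlap by library. No library held at least 20 cells of both, so these classes were not compared within a library. Neutrophil-like cells, at 53.4 CPM on 16 UMIs, were called lower (-1.60).

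Itgav (ENSRNOG00000004912) was highest in oligodendrocyte precursor-like and astrocyte-like cells, and the vessel classes differed, with a call as higher in mural or fibroblast-like cells and none in endothelial-like cells. Oligodendrocyte precursor-like cells had 295 CPM (257 to 337), with 284 and 343 CPM in libraries 1 and 4, above every library of astrocyte-like cells, the next named class. Astrocyte-like cells had 133, 123, 138, 129, 135 and 127 CPM in libraries 1 to 6, a 1.13-fold range, and so varied less between libraries than any other of the 8 genes in astrocyte-like, microglia-like or Clec7a-high myeloid cells. They stood above microglia-like cells in all 6 libraries, by 1.99 to 3.39 times. Mature oligodendrocyte-like cells had 61.0, 97.7, 71.4, 169, 110.1 and 39.6 CPM, which overlapped both. Itgav was called higher in precursor-like cells (2.47) and astrocyte-like cells (1.35), in cluster 25 (1.22), and in mural or fibroblast-like cells at 110.02 CPM (76.6 to 153; 1.13, on 35 UMIs). Mature oligodendrocyte-like cells lay at the mark (1.00), under it before rounding and over it without library 1, 2 or 5. Endothelial-like cells had 37.7 CPM (26.4 to 52.1), under the median of the classes (-0.21).

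Itgb5 (ENSRNOG00000001795) was higher in microglia-like cells, Clec7a-high myeloid cells, cluster 15 and astrocytes than in endothelial-like cells. It stood at 71.9 CPM in Clec7a-high myeloid cells, 66.6 CPM in microglia-like cells, 64.8 CPM in cluster 15 and 47.7 CPM in astrocyte-like cells. Microglia-like cells had 72.3, 54.8, 79.0, 57.1, 59.9 and 60.6 CPM in libraries 1 to 6, and Clec7a-high myeloid cells 101, 61.7 and 66.7 CPM in libraries 4, 5 and 6. Endothelial-like cells had 16.7 CPM (9.57 to 27.2; 16 UMIs) with no call (-0.96), and 32.4 and 7.57 CPM in libraries 3 and 5. Neutrophil-like cells had 26.7 CPM on 8 UMIs. It was called lower in the T or NK class at 10.7 CPM (-1.33; -0.75 with doublets kept) and in precursor-like cells at 13.6 CPM (-1.14), and among the small classes higher in border macrophage-like cells (1.92).

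**Figure D3:**
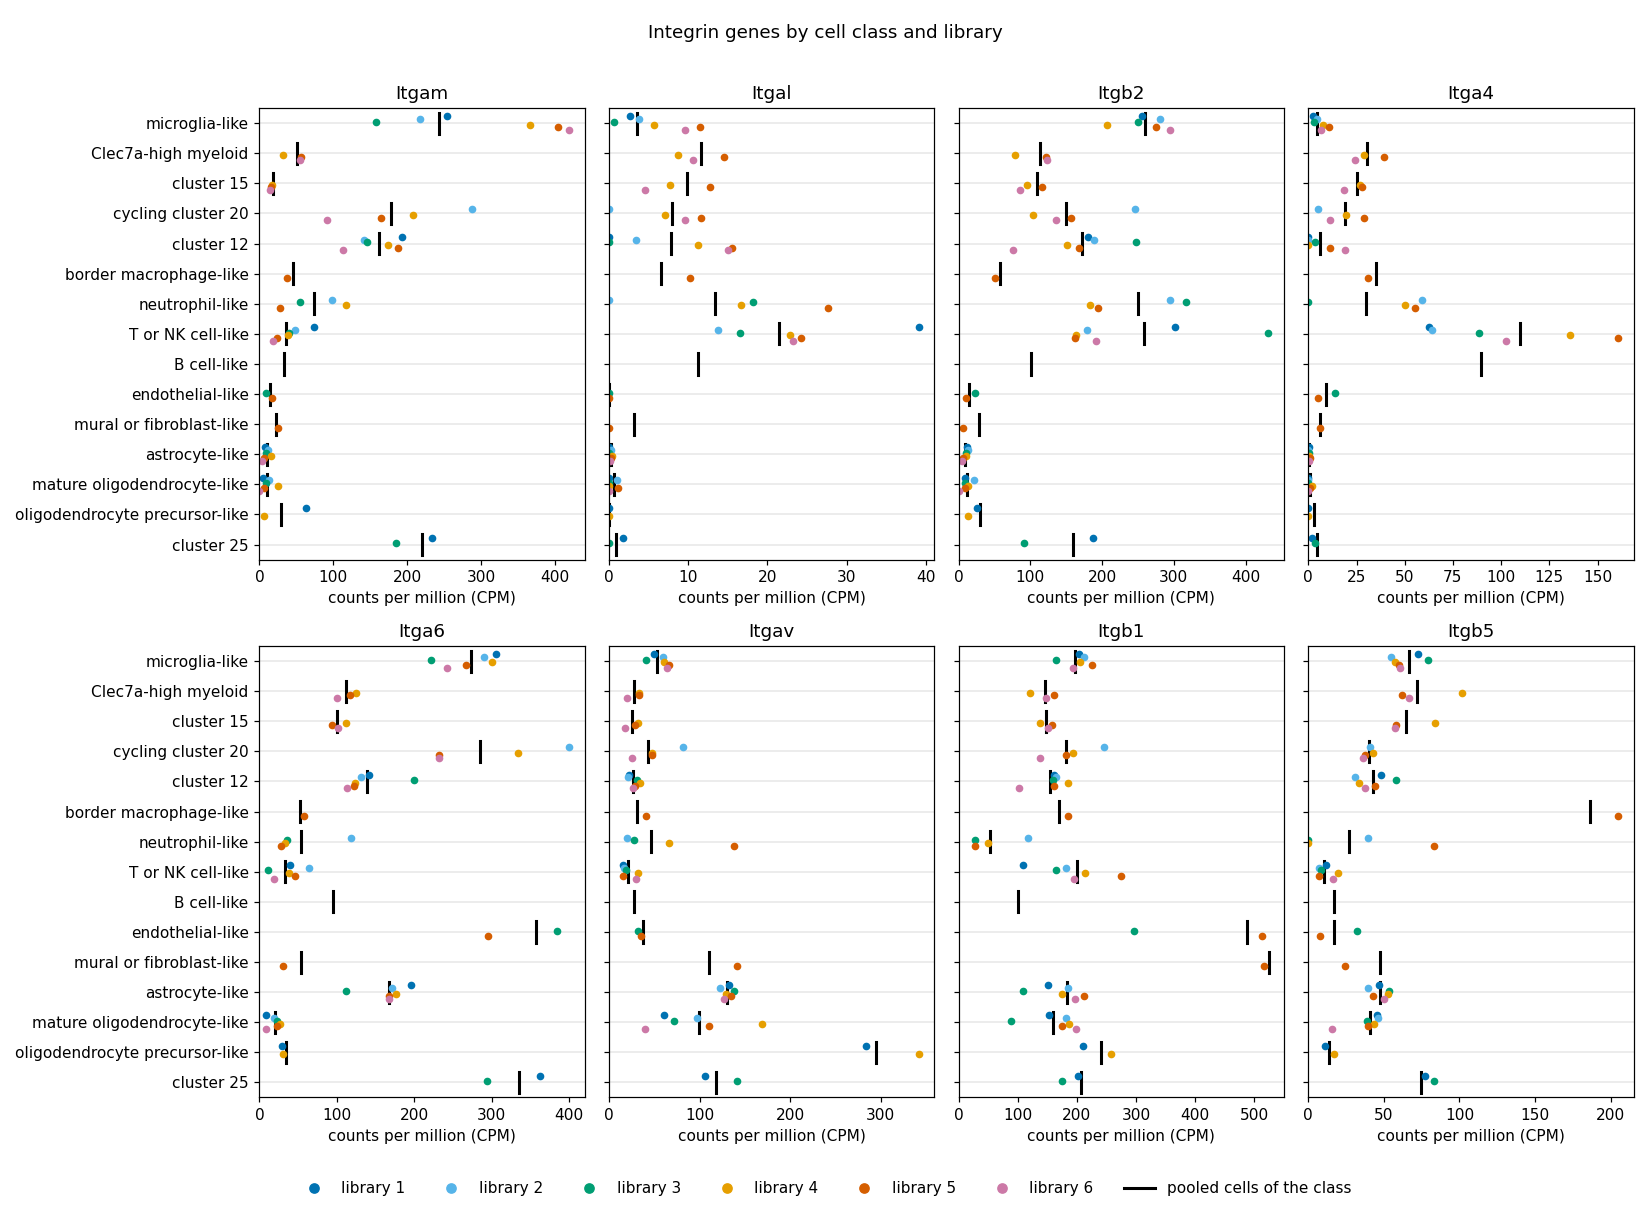
Level in CPM (x axis, from 0, with a scale of its own for each gene) of the integrin genes in 15 cell classes or clusters (rows); points are libraries with at least 20 cells of the class and black marks the pooled cells. Of these rows Itgam is highest in microglia-like cells, Itga4 in T or NK cell-like cells, Itgav in oligodendrocyte precursor-like cells, and Itgb1 in mural or fibroblast-like and endothelial-like cells.

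Counted by class, the calls were as follows, each set beside the share of all 22065 genes with a UMI that passed the same mark. Microglia-like cells had 2 of 8 genes higher (2.03% of all genes) and 0 lower (0.331%). Clec7a-high myeloid cells had 1 higher (2.1%) and 0 lower (0.304%), and T or NK cell-like cells 2 higher (3.57%) and 2 lower (2.28%). Astrocyte-like cells had 1 higher (8.88%) and 2 lower (3.81%), mature oligodendrocyte-like cells 0 higher (6.3%) and 3 lower (4.4%), and precursor-like cells 1 higher (13.3%) and 3 lower (2.63%). The 1 of 8 called higher in astrocyte-like and in precursor-like cells is near the share of all genes. In endothelial-like cells 2 were higher (6.83%) and 2 lower (1.83%), in mural or fibroblast-like cells 2 were higher (7.86%) and 2 lower (1.81%), and in neutrophil-like cells 1 higher (4.05%) and 2 lower (6.08%). Border macrophage-like cells had 2 higher (2.69%) and 2 lower (0.843%). Of the clusters with no single name, cluster 12 had 1 higher (1.0%) and 0 lower (2.92%), cluster 15 had 0 higher (2.35%) and 0 lower (0.29%), cycling cluster 20 had 2 higher (3.23%) and 0 lower (0.15%), and cluster 25 had 3 higher (5.61%) and 0 lower (0.344%). All 8 genes reached 10 CPM in some class of the 12 compared, and many of the 22065 genes did not. Among the 12690 genes that did, the shares are larger, for instance 3.53% as higher in microglia-like cells and 15.4% as higher in astrocyte-like cells.

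**Figure D4:**
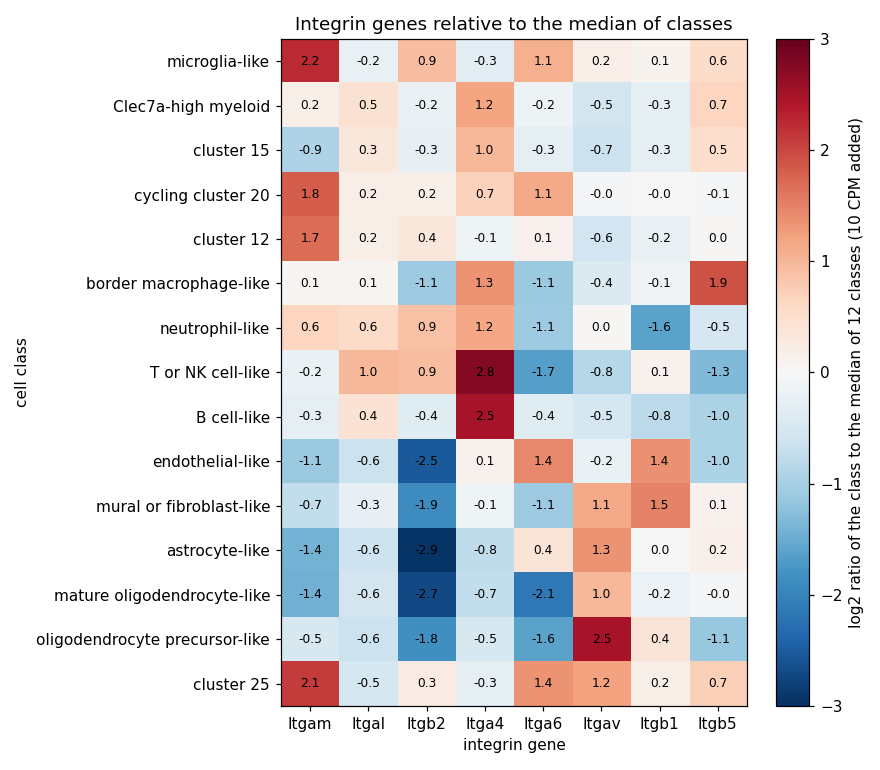
The log2 ratio of each class (rows) to the median of 12 classes for the 8 integrin genes (columns), with 10 CPM added to both; red is higher and blue lower. Of the rows shown Itgam has its highest ratio in microglia-like cells (2.24), Itga4 in the T or NK class (2.75) and Itgav in oligodendrocyte precursor-like cells (2.47).

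Outside microglia the spread over libraries differed between classes, which also differ in number of cells and of libraries read. A part of the class itself in this was not tested. In T or NK cell-like cells all 8 genes had a highest library at least 2 times the lowest, beside 61.9% of genes, in mature oligodendrocyte-like cells 5 of 5, beside 58.4%, in astrocyte-like cells 0 of 4, beside 14.7%, in Clec7a-high myeloid cells 0 of 8 over 3 libraries, beside 7.51%, and in cluster 15, over 3 libraries, 0 of 7, beside 14.1%. The T or NK and oligodendrocyte values rest on few UMIs per library. Itgam in T or NK cell-like cells was 74.3, 48.2, 39.6, 38.7, 23.1 and 18.6 CPM in libraries 1 to 6, on 133 UMIs in all.

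The genes most like each integrin gene over the 12 classes were named by the Pearson correlation of log2(CPM + 10), a description over 12 points that share libraries. Among the genes most like Itgam were Gpr84, a receptor for fatty acids (r = 0.97), Ccdc93 (0.95) and P2ry12, a purine receptor of microglia (0.95). Itgb2 was most like the leukocyte tetraspanin genes Cd53 (0.99) and Cd37 (0.97), and then Laptm5, a lysosomal membrane protein of leukocytes (0.97). Hcst, an adaptor of NK and T cell receptors (0.98), and Def6 (0.97) led for Itgal, and Ccdc69 (0.97) and Cytip (0.95) for Itga4. The first for Itga6 was Lpcat3, a phospholipid enzyme (0.95), for Itgav Zcchc24 (0.98), for Itgb1 Synj2bp (0.97) and for Itgb5 Pip4p1 (0.90). Between the 8 genes r was 0.77 for Itgam with Itgb2, 0.74 for Itgal with Itgb2, 0.91 for Itgal with Itga4, 0.40 for Itga6 with Itgb1 and -0.088 for Itgav with Itgb5.

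Among the 18 other integrin subunits few were expressed, 8 at 10 CPM or more in some class. Itgax, the alpha X chain of complement receptor 4, stood at 129.9 CPM in Clec7a-high myeloid cells, against a median of 11.3 CPM, with 3.08 CPM in microglia-like cells. Cluster 15 had as much, 139.7 CPM. Itgax was also called higher in cluster 34 (78.0 CPM), cycling cluster 29 (57.5 CPM), neutrophil-like cells (46.7 CPM) and cycling cluster 20 (41.8 CPM). Itgax was the 1 subunit of 18 called higher in Clec7a-high myeloid cells, beside 2.1% of all genes, or 3.66% of genes of at least 10 CPM. Itgb7, the beta chain that pairs with alpha 4 for homing to gut, was at 204 CPM in neutrophil-like cells and 40.9 CPM in T or NK cell-like cells. Itgb8, a partner of alpha V that activates TGF-beta, stood at 211 CPM in precursor-like cells, 110.3 CPM in astrocytes and 95.5 CPM in mature oligodendrocytes, against a median of 6.71 CPM. Itga9 stood at 177 CPM in precursor-like cells. Itga1, a collagen receptor chain, was at 153 CPM in endothelial-like cells and 116 CPM in mural or fibroblast-like cells, against a median of 0.0877 CPM.

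Ligands of integrins were found in vessel cells above all. Of 31 measured ligand genes 15 were called higher in endothelial-like cells (6.83% of all genes) and 1 lower (1.83%), with a median log2 ratio of 0.70 against 0 over all genes, and 14 were higher in mural or fibroblast-like cells (7.86%) and 1 lower (1.81%), with a median of 0.46 against 0. In endothelial-like cells Ccn2, a matricellular protein, stood at 1334 CPM, Vtn, vitronectin, at 774 CPM and Fn1, fibronectin, at 614 CPM, each against a median under 2 CPM. Lama4, a laminin chain of vessel walls, was at 146 CPM. Mural or fibroblast-like cells had more Vtn, 2845 CPM, and cluster 34 had more Fn1, 1779 CPM. Microglia-like cells had 4 of 31 higher (2.03%) and 0 lower (0.331%), with F11r (JAM-A, a ligand of LFA-1) at 279 CPM, Icam1 at 97.5 CPM, Icam5 at 31.7 CPM and C3, whose fragment binds CD11b, at 306 CPM. F11r differed in Clec7a-high myeloid cells, at 2.72 CPM, while Icam1 stood at 117 CPM there. Astrocyte-like cells had 5 higher and 5 lower, beside 8.88% and 3.81% of all genes, or 15.4% as higher among genes of at least 10 CPM, with Vcam1, the ligand of VLA-4, at 357 CPM against a median of 36.2 CPM. T or NK cell-like cells had 0 higher (3.57%) and 3 lower (2.28%).

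Among adaptors that carry integrin signals the kindlin genes ran by class, while others such as Flna and Rasgrp2 were called higher in leukocyte and vessel classes both. Fermt3, the kindlin of blood cells, was at 252 CPM in Clec7a-high myeloid cells, 207 CPM in microglia-like cells, 120.3 CPM in the T or NK class and 32.4 CPM in endothelial-like cells, against a median of 119 CPM. Fermt2, the kindlin of other tissues, stood at 625 CPM in endothelial-like cells, at 481 CPM in astrocytes and at 414 CPM in mature oligodendrocytes, against a median of 47.1 CPM, with 13.7 CPM in microglia. Of 32 adaptor genes astrocyte-like cells had 7 higher (8.88%) and 12 lower (3.81%), with a median of -0.46 against 0.0073 over all genes. Apbb1ip (RIAM, which brings talin to leukocyte integrins) had 19.1 CPM in astrocytes against 685 CPM in microglia, and Fyb1, an adaptor of blood cells, had 10.3 CPM in astrocytes against 509 CPM in Clec7a-high myeloid cells. Neutrophil-like cells had 8 higher, beside 4.05% of all genes, and 3 lower, beside 6.08%, or 10.6% of genes of at least 10 CPM, which is near the share of the adaptors. Among those higher were Rasgrp2, which activates the small GTPase Rap1, at 264 CPM and the kinase gene Fgr at 304 CPM. Microglia-like cells had 1 higher (2.03%) and 2 lower (0.331%). These genes took no part in the choice of variable genes for clustering.

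**Figure D5:**
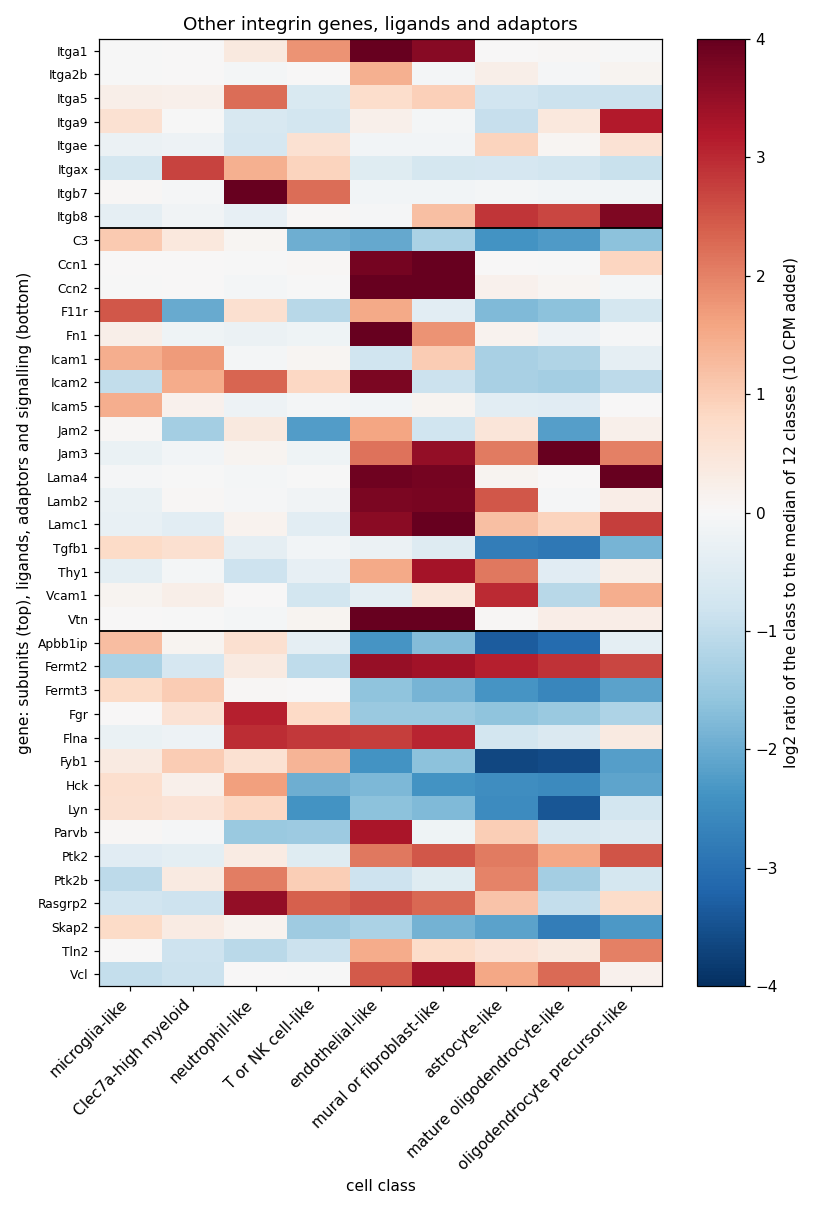
The log2 ratio to the median of 12 classes, with 10 CPM added to both, for 40 other integrin genes, ligands and adaptors (rows, parted by black lines) in 9 cell classes (columns); red is higher and blue lower. Of the classes shown, Vtn and Ccn2 stand out in endothelial-like and mural or fibroblast-like cells, and Fn1 in endothelial-like cells. Itgax stands out in Clec7a-high myeloid cells and Fermt2 in every class of neural or vessel origin shown.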

How the data were processed

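The authors deposited UMI counts as 1 matrix of 30452 genes and 58078 barcodes (329205505 UMIs), written by Cell Ranger 7.0.0 per the file headers. The submitters' processing notes name the build mm10, while the deposited gene identifiers are those of rat, and the aligned build could not be settled. Barcodes end in a library number that no label explains.

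The 48704 barcodes kept had 500 or more UMIs and 200 or more genes, with no more than 20% of UMIs mitochondrial, and 3311 predicted doublets (6.80%) were removed with a caller that simulates doublets. The 45393 cells left were clustered on 2000 variable genes, from which the integrin genes and lists were left out, with 30 components, 15 neighbours and Leiden resolution 1 into 35 clusters. Clusters were named by marker scores, with at least 3 markers passing. The further demand on the share of a list's markers that pass, and the joining of clusters 3, 9 and 16 into 1 Clec7a-high class, were settled after the values were seen. UMIs were summed per class and library (at least 20 cells), scaled to CPM and given with exact Poisson intervals at the 95% level, and limits for 0 UMIs rest on 3 counts. The genes, the lists and the markers were chosen with earlier results of these data known.

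Named genes are all 8 integrin genes, up to 4 genes per list and class by the size of the log2 ratio, and, of the 5 genes most like each integrin gene, 1 to 3, with the rest not reported here. Values of other classes are set beside them for contrast. Alternatives changed the mitochondrial and UMI limits, doublet removal, variable genes, resolution, naming, scaling, added CPM, thinning and the libraries used. Scripts were tested on simulated data. Clustering used leidenalg 0.10.2, python-igraph 0.11.9 and scikit-learn 1.9.0, and tables used pandas 2.3.3, SciPy 1.17.1 and NumPy 2.4.6 under Python 3.11.15.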

Additional observations from a re-analysis of the deposited data

How the results depend on the processing

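No paired analysis was possible because the labels number samples 1 to 3 in each group while no library is tied to a sample, so irradiated rats were not compared with control rats, with or without a replicate block. Of 355 alternative values of the 24 called ratios in named classes of at least 100 cells and Clec7a-high myeloid cells 303 stayed past 1 and 52 did not. Counts are of the 8 genes called, with the reported value in brackets. The share of all genes past the mark was not computed under these settings. The counts therefore show how the calls moved, not whether they differ from the background. With 1 CPM added, calls as lower came to 4 (2) in astrocytes, 5 (3) in mature oligodendrocytes, 5 (3) in precursors and 4 (2) in endothelial cells, and as higher to 1 (0) in mature oligodendrocytes and 2 (1) in neutrophils. With at most 10% mitochondrial UMIs, lower calls were 1 (0) in microglia and 1 (2) in neutrophils, and higher calls 0 (1) in Clec7a-high myeloid cells, 1 (2) in T or NK cells, 1 (0) in mature oligodendrocytes and 0 (1) in neutrophils. Genes with a 2-fold range over libraries were then 2 (1) in microglia, 2 (0) in Clec7a-high myeloid cells and 1 (0) in astrocytes. The median log2 ratio of Clec7a-high myeloid to microglia-like cells became 0.50 (0.19) for Itgal, -0.68 (-1.19) for Itgb2, -1.38 (-1.19) for Itga6 and 0.63 (0.12) for Itgb5, and with doublets kept -1.10 for both Itgb2 and Itga6. Doublets kept gave lower calls of 1 in astrocytes, 0 in T or NK cells, 1 in mature oligodendrocytes, 1 in precursors and 1 in neutrophils, and higher calls of 0 in Clec7a-high myeloid cells, 1 in T or NK cells and 0 in neutrophils. Naming each cell by its highest marker score gave higher calls of 0 in microglia, 1 in T or NK cells, 0 in endothelial cells and 0 in neutrophils and lower calls of 0 in precursors, endothelial cells and neutrophils. It turned the endothelial ratios to 0.71 for Itgam and 0.51 for Itgb2. The cause was not tested. A median without clusters 12 and 25, added after seeing the data, gave 0 higher in Clec7a-high myeloid cells, 1 lower in endothelial cells and 1 lower in neutrophils. At least 1000 UMIs gave 1 lower in endothelial cells and 1 lower in neutrophils, resolution 0.5 gave 2 higher and 0 lower in neutrophils, size factors 2 higher and 1 lower in neutrophils, and integrin genes among the variable genes 1 higher in mature oligodendrocytes. Thinned to 1000 UMIs, shares of cells were 20.2% for Itgam, 22.1% for Itgb2 and 23.6% for Itga6 in microglia, 8.80% for Itga4 and 1.73% for Itgal in T or NK cells, 12.1% for Itgav in astrocytes, 33.6% for Itgb1 in endothelial cells and 7.27% for Itgb5 in Clec7a-high myeloid cells. Leaving out 1 library at a time gave 1 to 3 higher in microglia, 0 to 1 in Clec7a-high myeloid cells, 1 to 2 in T or NK cells, 0 to 1 in mature oligodendrocytes, 0 to 1 higher and 1 to 2 lower in neutrophils, and 1 to 3 lower in endothelial cells. It gave 0 to 1 genes of 2-fold range in microglia and 0 to 1 in astrocytes. Counting among genes of at least 10 CPM alters only the background share. Small classes, with 130 endothelial-like and 202 neutrophil-like cells, limit what can be seen.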
